A study of Homo sapiens with 5 samples.

Results

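The 7 human sirtuin genes, SIRT1 to SIRT7, were followed through the transcriptome of HEK293, a cell line established from human embryonic kidney. They were taken by symbol from the deposited count table, and 7 of 7 were present among its 16677 genes. Sirtuins remove acetyl and other acyl groups from lysines of proteins and use up NAD in doing so, which ties their activity to the metabolic state of the cell. SIRT1, SIRT6 and SIRT7 are nuclear, with SIRT7 concentrated in the nucleolus, and SIRT2 is mainly cytosolic. SIRT3, SIRT4 and SIRT5 work in the mitochondrial matrix, where SIRT3 is the main deacetylase, SIRT5 removes succinyl, malonyl and glutaryl groups, and SIRT4 has only weak deacetylase activity.

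The study has 2 libraries of wild-type HEK293, labelled Control (here wild-type 1 and 2), and 3 of HEK293 with the T-to-C change rs11607019 (variant 1 to 3), which the title of the series assigns to SIRT3. All were grown under basal conditions with no treatment, and a strand-specific mRNA library was sequenced from total RNA. The labels do not say how the change was made, whether it is on 1 allele or more, or whether each library is a separate clone. The variant site was not analysed here, so the SIRT3 level is no check of the genotype. Library totals ran from 17122569 to 17596084 counts. Sirtuins together took between 0.0384% and 0.0466% of them. Levels are in CPM, the count scaled to a common library size after adjustment for library composition by TMM (trimmed mean of M-values). Of 10 genes listed as HEK293 markers, 6 had rows and all 6 were tested, among them PAX2, LHX1, VIM and KRT18. Of 11 markers of other cell types, 2 had rows, COL1A1 and EPCAM, and EPCAM ran from 53.1 to 208 CPM with overlapping groups.

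The 7 genes lie on 6 chromosomes in GENCODE release 29 (GRCh38). SIRT1 (ENSG00000096717) spans 67884669 to 67918390 of chromosome 10, SIRT2 (ENSG00000068903) 38878555 to 38899862 and SIRT6 (ENSG00000077463) 4174109 to 4182604 of chromosome 19, and SIRT3 (ENSG00000142082) 215458 to 236931 of chromosome 11. SIRT4 (ENSG00000089163) spans 120302316 to 120313249 of chromosome 12, SIRT5 (ENSG00000124523) 13574529 to 13615158 of chromosome 6, and SIRT7 (ENSG00000187531) 81911939 to 81921323 of chromosome 17. SIRT1, SIRT4 and SIRT5 are on the forward strand. Their annotated exons overlap other genes unevenly, and the sources used here do not say if counting was by strand. The overlap covers 16.1% of SIRT5 exon bases, all with an antisense transcript, and 6.08% of SIRT3 exon bases, all with PSMD13. It covers 1.71% in SIRT7, 0.982% in SIRT4 and 0.643% in SIRT2, and 0 bases in SIRT1 and SIRT6.

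RefSeq promoter windows, from 250 bases before to 50 bases after a start site, matched 6 of the 7 members by symbol on GRCh38.p14, and SIRT7 was not among them. In 3 of the 6 a protein-coding gene with a row in the table starts close by on the other strand. These 3 are printed because the data compare each sirtuin with that partner. Capitals mark the bases between the start sites, and each sequence is read along the reverse strand.
SIRT3: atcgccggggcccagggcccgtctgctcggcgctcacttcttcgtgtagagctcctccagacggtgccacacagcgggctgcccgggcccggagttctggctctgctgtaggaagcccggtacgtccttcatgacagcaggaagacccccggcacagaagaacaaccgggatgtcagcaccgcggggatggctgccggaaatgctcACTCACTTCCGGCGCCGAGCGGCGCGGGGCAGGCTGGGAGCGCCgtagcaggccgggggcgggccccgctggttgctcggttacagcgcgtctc
SIRT2: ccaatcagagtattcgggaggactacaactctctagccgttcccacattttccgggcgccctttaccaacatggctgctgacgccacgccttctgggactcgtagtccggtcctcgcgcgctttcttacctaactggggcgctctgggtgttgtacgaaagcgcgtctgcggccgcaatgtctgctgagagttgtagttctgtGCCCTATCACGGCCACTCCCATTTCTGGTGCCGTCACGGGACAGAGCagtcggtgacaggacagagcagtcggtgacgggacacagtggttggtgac
SIRT6: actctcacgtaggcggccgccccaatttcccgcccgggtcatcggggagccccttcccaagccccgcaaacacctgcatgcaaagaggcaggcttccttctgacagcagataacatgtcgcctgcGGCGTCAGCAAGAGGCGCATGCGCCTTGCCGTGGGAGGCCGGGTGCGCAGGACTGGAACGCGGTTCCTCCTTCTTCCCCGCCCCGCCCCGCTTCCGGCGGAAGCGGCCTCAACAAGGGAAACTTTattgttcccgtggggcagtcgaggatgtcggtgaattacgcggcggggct
The SIRT3 window is chr11:236882-237181, where 44 bases separate its start from that of PSMD13, a proteasome lid subunit. The SIRT2 window is chr19:38899569-38899868, with 47 bases to the start of NFKBIB, an inhibitor of NF-kappaB. The SIRT6 window is chr19:4182514-4182813, with 125 bases to the start of ANKRD24.

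Letters of known factor motifs were counted on both strands of these windows. The ETS letters CCGGAA occur between the starts of SIRT3 and PSMD13 and between those of SIRT6 and ANKRD24. Over whole windows there are 2 matches for SIRT3, 1 for SIRT6 and 1 for SIRT2, and 17.2% of 35116 promoter windows of this length hold these letters. The GC box GGGCGG, the letters of SP and KLF factors, is in the SIRT1 (4 matches), SIRT6 (3), SIRT3 (1) and SIRT5 (1) windows and in 45% of all windows. SIRT1 has 2 E-boxes (CACGTG), found in 7.26% of windows, and SIRT4 has 2 matches to TATAAA, found in 11.5%. The CCAAT box is in the SIRT2 and SIRT6 windows (1 match each) and in 34.6% of all windows. The NRF1 motif is in the SIRT5 and SIRT6 windows (1 match each) and in 1.24% of all windows. In SIRT6 it lies between the start sites. Matches of the same motif were counted without overlap, which leaves out a GC box in SIRT6 that shares a base with another. Matches of different motifs may share bases. They describe the sequence, and factor binding was not measured.

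SIRT2 was the most abundant sirtuin and SIRT4 the least. SIRT2, the alpha-tubulin deacetylase, stood at 219 and 236 CPM in wild-type 1 and 2 and at 156, 212 and 192 CPM in variant 1, 2 and 3. SIRT7, which acts on transcription of ribosomal DNA, stood at 76.4 and 88.9 CPM in wild type and at 82.4, 77.8 and 91.2 CPM in the variant. SIRT1, a deacetylase of FOXO factors, stood at 54.4 and 48.5 CPM and at 65.8, 45.9 and 47.3 CPM. SIRT2 was lowest and SIRT1 highest in variant 1, and the wild-type and variant ranges of SIRT1 and SIRT7 overlapped.

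SIRT6, a histone deacetylase of telomeres and DNA repair sites, stood at 33.0 and 39.8 CPM in wild type and at 31.96, 39.8 and 39.9 CPM in the variant. It was low in wild-type 1 and variant 1 and nearly equal in the other 3 libraries. SIRT3 stood at 28.9 and 29.3 CPM in wild type and at 26.5, 15.8 and 30.2 CPM in the variant. SIRT5 stood at 22.9 and 20.6 CPM in wild type and at 27.1, 27.8 and 26.1 CPM in the variant. All 3 variant libraries lay above both wild-type libraries for SIRT5, and only variant 2 stood apart for SIRT3. In bulk libraries, fewer cells with a transcript and less of it in each cell cannot be told apart.

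SIRT4 rested on 41 and 35 counts in wild type and on 16, 41 and 51 in the variant, so its level is the least precise of the family. It read 2.39 and 1.996 CPM in wild type, with 95% Wilson intervals from 1.76 to 3.24 and from 1.44 to 2.78. In the variant it read 0.925 (0.569 to 1.5), 2.35 (1.74 to 3.19) and 2.88 CPM (2.19 to 3.79). Intervals of this kind hold counting error alone, as no molecular identifiers are described. Variant 1 was low, with an interval that overlapped only that of wild-type 2.

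**Figure D1:**
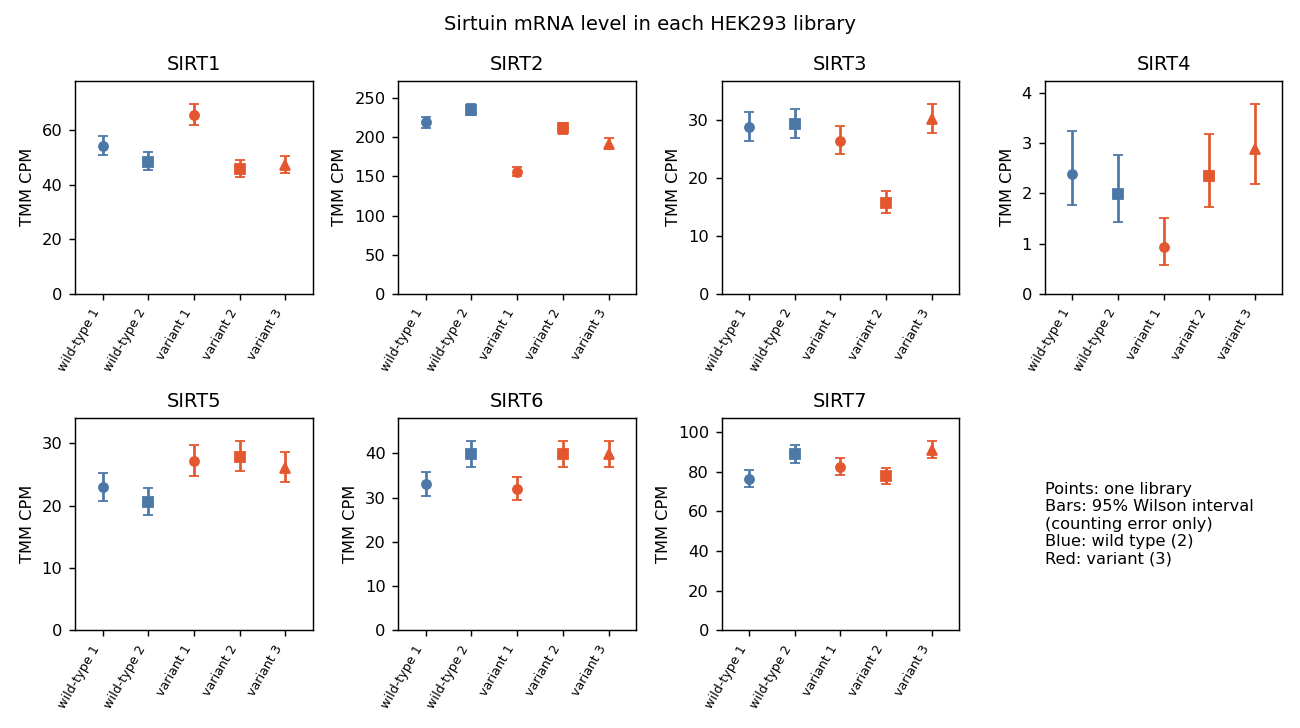
TMM-normalised CPM of each sirtuin (vertical axes from 0, a scale for each gene) in the 2 wild-type (blue) and 3 variant (red) libraries, with 95% Wilson intervals for counting error. SIRT3 is low in variant 2 only (15.8 CPM), SIRT4 is low in variant 1 (0.925 CPM), and the 3 variant libraries lie above both wild-type libraries for SIRT5.

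Levels of different genes were compared per kilobase, as CPM divided by the length of all annotated exons of the gene joined together. On that scale the means over the 5 libraries were 32.6 ± 4.92 for SIRT2, 13.5 ± 1.07 for SIRT7, 13.2 ± 1.45 for SIRT6, 11.5 ± 1.79 for SIRT1, 5.02 ± 1.14 for SIRT3, 3.83 ± 0.471 for SIRT5 and 1.73 ± 0.600 for SIRT4 (CPM per kilobase, SD, n = 5). SIRT2 was at the 90.3rd percentile of tested genes, SIRT3 at the 50.4th and SIRT4 at the 25.8th. The family fell into 4 steps whose ranges did not overlap. SIRT2 was above SIRT7 in 5 of 5 libraries, by a mean of 2.39-fold. SIRT7, SIRT6 and SIRT1 overlapped among themselves, and SIRT1 was 2.33-fold above SIRT3. SIRT3 and SIRT5 overlapped, and SIRT5 was 2.36-fold above SIRT4. For each of the 3 gaps the exact two-sided sign-flip permutation test over the 5 libraries gave p = 0.0625, the smallest it can give. It was 0.125 after Benjamini-Hochberg adjustment over the 6 neighbouring pairs. The order came from the same libraries, and a gap present in 5 of 5 libraries must give this value. The test therefore adds no support to the gaps. For SIRT3 and SIRT5 the exact sign-flip p was 0.188 (0.281 adjusted). SIRT3 was 1.78-fold above SIRT5 in wild-type 2 and 0.709 times SIRT5 in variant 2.

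The order below SIRT2 depended on which length was used. Joined exons exceed a single transcript where annotated transcripts retain introns, as in SIRT7 (6152 bases joined, 3445 in the longest transcript) and SIRT3 (5202 and 2627). With the longest transcript, SIRT6 lay above SIRT1 with no overlap (22.5 against 12.8 CPM per kilobase) and SIRT1 overlapped with SIRT3 (9.95). With the median coding transcript, SIRT7 (62.8) lay above SIRT6 (25.7) with no overlap, and SIRT3 (21.2) ranked above SIRT1 (15.1). SIRT2 was the highest, SIRT5 next to the lowest and SIRT4 the lowest under all 3 lengths. Of the 11 zinc-dependent deacetylases, which need no NAD, HDAC1 (69.0 CPM per kilobase of joined exons) was above SIRT2, HDAC3 (31.4) was near it and HDAC9 (0.198) was below SIRT4.

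**Figure D2:**
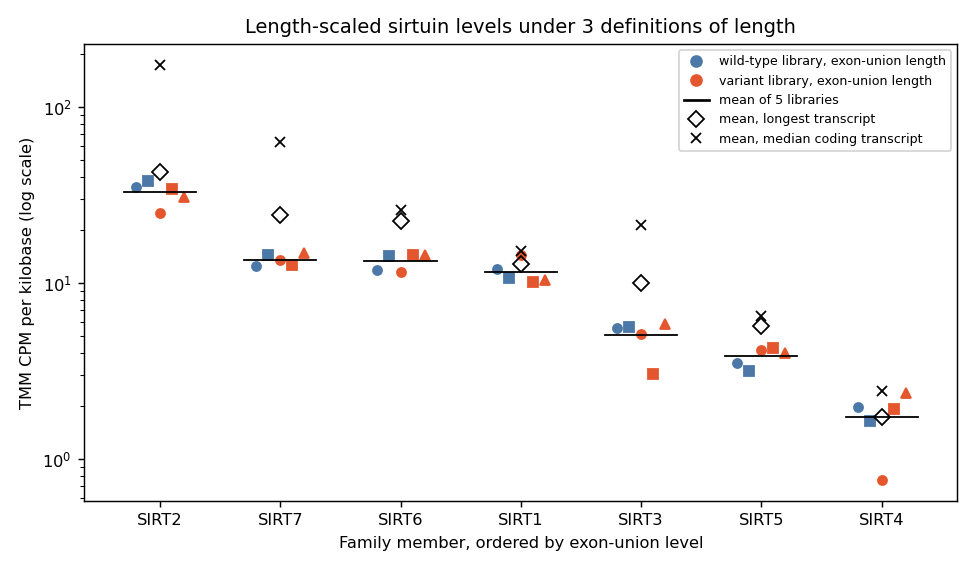
Sirtuin levels per kilobase on a log axis, as points for each library with joined-exon length, a line at their mean, and the means with the longest (diamond) and the median coding (cross) transcript. SIRT2 is at the top (mean 32.6) and SIRT4 at the bottom (mean 1.73), and the crosses of SIRT2, SIRT7 and SIRT3 lie far above their lines.

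The variant libraries were compared with wild type to ask whether the family differs with a variant in SIRT3. By edgeR's quasi-likelihood F test with Benjamini-Hochberg adjustment, 0 of 7 sirtuins and 0 of 16310 tested genes (0%) passed the threshold of 0.05. Without adjustment 0 of 7 sirtuins were under 0.05, beside 7.62% of tested genes. DESeq2 and limma-voom also called 0 of 7 sirtuins, and over all genes DESeq2 called 32 and limma-voom 0. The largest differences were in SIRT5 and SIRT2. In these 2 of 7 members the groups did not overlap, beside 24.8% of all tested genes. SIRT5 was higher in the variant (11.8% of all genes) and SIRT2 lower (13%). A share of 2 in 7 is near that of all genes.

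SIRT5 averaged 21.7 ± 1.64 CPM in wild type (SD, n = 2) and 27.0 ± 0.878 CPM in the variant (SD, n = 3). This was a log2 fold change of 0.31 (SE 0.18), and its 95% interval ran from −0.09 to 0.71 (edgeR, adjusted p 0.700). The difference was larger than the spread within either group, and its interval includes no change. Over 13 other fits, with other scalings, filters, tests or 1 library left out, it lay between 0.24 and 0.39, and the adjusted p between 0.617 and 0.998.

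SIRT2 averaged 227 ± 11.6 CPM in wild type (SD, n = 2) and 186 ± 28.3 CPM in the variant (SD, n = 3). This was a log2 fold change of −0.29 (SE 0.16), and its 95% interval ran from −0.65 to 0.08 (edgeR, adjusted p 0.696). Variant 1 was the lowest library, and without it the log2 fold change was −0.17. The libraries also differed in how level varied with GC content. Across 10854 genes, which are not independent, Spearman's rho between GC content and a library's deviation ranged from −0.530 in wild-type 1 to 0.469 in variant 3. The GC content of SIRT2 is 60.1%, and that of the median gene 48.6%. A fit that corrected each library for GC and length gave SIRT2 a difference of −0.45 (SE 0.13, edgeR p 0.00880 unadjusted and 0.762 adjusted).

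SIRT3 averaged 29.1 ± 0.326 CPM in wild type (SD, n = 2) and 24.2 ± 7.49 CPM in the variant (SD, n = 3), a log2 fold change of −0.27 (SE 0.26, edgeR adjusted p 0.815). Only variant 2 lay far from the rest, and without it the difference was −0.04. Without variant 3, the highest library, it was −0.46. SIRT4 averaged 2.19 ± 0.278 CPM in wild type (SD, n = 2) and 2.05 ± 1.01 CPM in the variant (SD, n = 3). The ratio of variant to wild type for SIRT4 was 0.937, with a 95% interval from 0.461 to 1.91 (edgeR, adjusted p 0.972). On the log2 scale that is −0.09, and it became 0.25 without variant 1 and 0.04 without wild-type 1.

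The nuclear sirtuins had the smallest differences between the groups. The ratio of variant to wild type was 1.01 for SIRT7 (95% interval 0.790 to 1.30), 1.02 for SIRT6 (0.763 to 1.37) and 1.03 for SIRT1 (0.756 to 1.41). For these genes edgeR gave adjusted p-values of 0.985, 0.978 and 0.969. Small differences of either sign lie inside these intervals, and the sign itself changed in some alternatives for each of the 3 genes. SIRT6 has the highest GC content of the family (64.9%, at the 96.4th percentile of tested genes). Its deviations of −0.19 in wild-type 1 and −0.25 in variant 1 became −0.08 and −0.05 on the log2 scale once GC and length were corrected.

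**Figure D3:**
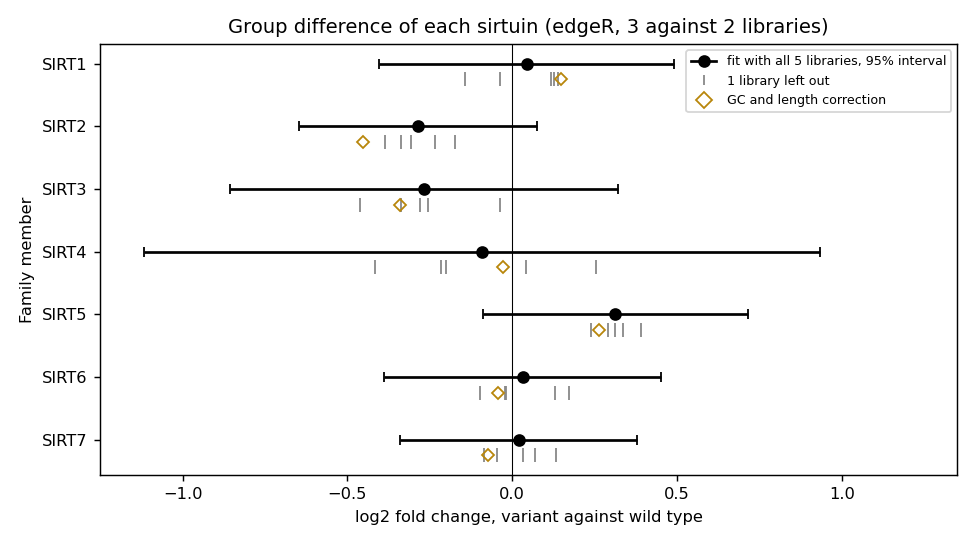
Log2 fold change of each sirtuin between the variant and wild type, with 95% intervals derived from the edgeR test over 5 libraries (black), fits with 1 library left out (grey ticks) and the fit corrected for GC content and length (diamonds). All 7 intervals include 0, SIRT5 is to the right and SIRT2 to the left in each fit drawn, and SIRT3 reaches −0.04 in the fit without variant 2.

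The other sirtuins were then read in variant 2, the library with low SIRT3, to see whether any was higher there. This library was chosen with its SIRT3 value known, and it is 1 library, so the values are a description with no test. SIRT3 in variant 2 stood at 0.552 times its mean elsewhere, a log2 difference of −0.86 from the other 4 libraries. After correction for GC and length it was −0.90. Of the 7 sirtuins, 1 was past 1.5-fold in that library, and it was SIRT3, whose low level picked the library. Its passing was therefore known in advance, and none of the other sirtuins was past 1.5-fold there. Of all tested genes 11% were past 1.5-fold there in either direction, and 3.53% were past it and lower. The other mitochondrial sirtuins were somewhat higher, SIRT5 at 1.16 times and SIRT4 at 1.23 times the other libraries. SIRT6 stood at 1.11 times, SIRT2 at 1.07, SIRT7 at 0.921 and SIRT1 at 0.858.

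For SIRT5 and SIRT4, other libraries had similar levels. SIRT5 was 27.8 CPM there and 27.1 and 26.1 CPM in variant 1 and 3, where SIRT3 was not low. SIRT4 was 2.35 CPM in variant 2 and 2.39 CPM in wild-type 1. The count ratio of SIRT3 to SIRT5 was 1.26 and 1.42 in wild type and 0.977, 0.567 and 1.16 in variant 1, 2 and 3. A single scaling factor for each library cannot change this ratio, but a correction for GC and length can.

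The widest departures elsewhere were in variant 1 and in SIRT4. SIRT4 in variant 1 was 0.416 times the other 4 libraries, and in variant 3 it was 1.56 times the others, on 16 and 51 counts. In variant 1 SIRT1 was 1.34 times and SIRT2 0.728 times the other libraries, short of 1.5-fold. After correction for GC and length, SIRT4 in variant 3 was at 0.58 on the log2 scale, just inside 1.5-fold. Of all tested genes 13.5% were past 1.5-fold in variant 1 and 11% in variant 3. No sirtuin was past it in wild-type 1 or 2, where 15.1% and 9.46% of genes were.

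**Figure D4:**
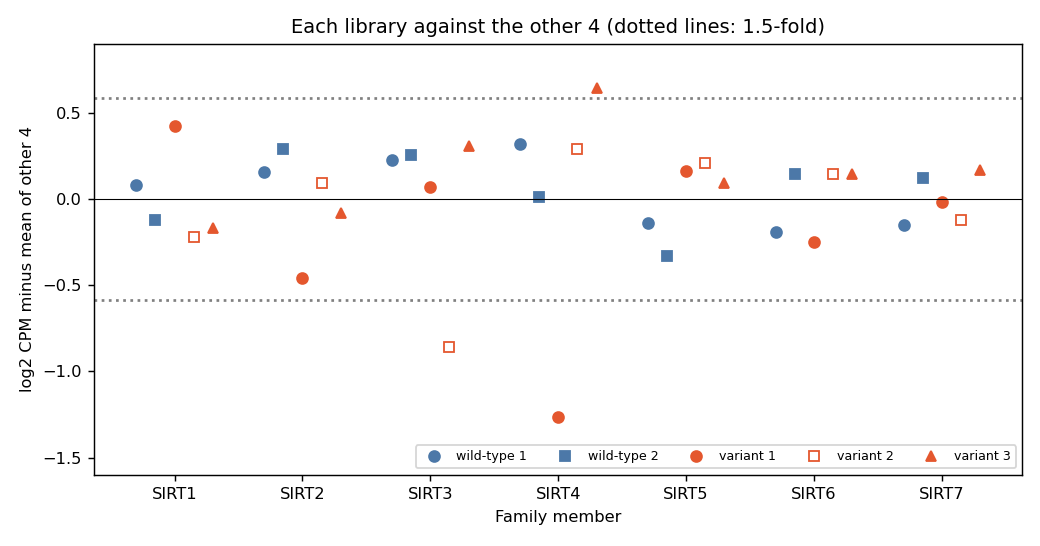
Log2 CPM of each sirtuin in each library minus the mean of the other 4 libraries, with dotted lines at 1.5-fold. Of 35 points, 3 lie past the lines: SIRT3 in variant 2 (−0.86), SIRT4 in variant 1 (−1.27) and SIRT4 in variant 3 (0.64).

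The genes around each sirtuin were read in the same way. The 5 tested protein-coding genes nearest to SIRT3 (2 towards the chromosome end and 3 on the other side) had a median of −1.08 in variant 2 on the log2 scale, and 4 of them were past 1.5-fold lower. BET1L, a Golgi transport protein, stood at 19.9 CPM in variant 2 and between 37.2 and 50.2 CPM in the other libraries. RIC8A, a chaperone of G protein alpha subunits, stood at 50.4 CPM and between 87.6 and 116 CPM, and PSMD13 at 58.6 CPM and between 107 and 142 CPM. IFITM2, an interferon-induced membrane protein, stood at 10.7 CPM and between 18.9 and 31.3 CPM, and it has near-identical family members with which short reads can be shared. PGGHG, a glycosidase of hydroxylysine, was nearest to the rest at 21.6 CPM against 23.7 to 33.5 CPM. So in variant 2 low levels were measured on both sides of SIRT3 as well as at SIRT3. The next 2 genes beyond IFITM2, named after their values were seen, went opposite ways in variant 2, IFITM3 at −1.45 and B4GALNT4 at 1.26 on the log2 scale.

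SIRT3 was also set against 3 adjacent genes in the same library. These genes were chosen after their levels in variant 2 were seen, so the values are a description with no test. The log2 ratio of SIRT3 to the mean of BET1L, RIC8A and PSMD13 was −1.35 and −1.65 in wild type and −1.44, −1.29 and −1.57 in variant 1, 2 and 3. Variant 2 was the highest of the 5 by this ratio. The groups overlapped, with a difference of 0.06 between the variant and wild type. This ratio spanned 1.28-fold over the 5 libraries, and the SIRT3 level itself spanned 1.91-fold. The ratio to PSMD13 alone also spanned 1.28-fold.

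In variant 2 the neighbours' medians around the other 6 members lay between −0.17 (SIRT1) and 0.10 (SIRT6). Neighbours were taken by order, so their distances differ. The farthest was at 92.2 kb for SIRT3 (IFITM2) and at −4717 kb for SIRT1 (JMJD1C). SIRT2 did not follow its divergent partner. NFKBIB read 78.6 and 95.6 CPM in wild type and 87.6, 78.8 and 89.9 CPM in the variant, and the ratio of SIRT2 to NFKBIB spanned 1.57-fold where SIRT2 alone spanned 1.51-fold. ANKRD24, at between 2.10 and 3.96 CPM, gave a ratio with SIRT6 that spanned 1.53-fold where SIRT6 alone spanned 1.25-fold. ANKRD24 and SIRT6 deviated in the same direction in every library, by unlike amounts (−0.76 and −0.19 in wild-type 1). In variant 1, where SIRT4 was 0.416 times the other libraries, its 6 neighbours (RPLP0, GCN1, PXN, MSI1, COX6A1 and TRIAP1) had a median log2 deviation of −0.15, with a range from −0.50 to 0.33. The 6 neighbours of SIRT2 (ECH1, HNRNPL, RINL, NFKBIB, CCER2 and SARS2) had a median of 0.01 in variant 1, with a range from −1.22 to 0.28. The lowest was RINL, the gene next to SIRT2, which was low in variant 1 together with it. RINL varied widely elsewhere, at −0.27 and 1.68 in wild-type 1 and 2 and at −0.74 and 0.55 in variant 2 and 3. SIRT2 had 0.16 and 0.29 in those wild-type libraries and 0.09 and −0.08 in those variant libraries.

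Between the groups, 12 of the 41 neighbours of sirtuins did not overlap (29.3%, beside 24.8% of all tested genes), and edgeR called 0 of 41 at an adjusted p of 0.05. Around SIRT5, RANBP9 and GFOD1 were also higher in all 3 variant libraries, with log2 fold changes of 0.23 (SE 0.17) and 0.30 (SE 0.18), and TBC1D7 was lower (−0.13, SE 0.18). NOL7, which starts just past the end of SIRT5, had 0.07 (SE 0.15) with overlapping groups. Around SIRT7 the variant was higher with no overlap at MAFG (0.39, SE 0.16) and PCYT2 (0.31, SE 0.17), where SIRT7 itself had 0.02. SIRT7 shares 105 exon bases with MAFG on the same strand, so reads there cannot be assigned by strand. Around SIRT1 the variant was lower with no overlap at DNAJC12 (−0.81, SE 0.23), REEP3 (−0.21, SE 0.16) and PBLD (−0.16, SE 0.23), and SIRT1 had 0.04. REEP3 lies at −4363 kb from SIRT1, so it is next in order among tested genes but not close to it. For SIRT3 and SIRT6, 0 of 5 and 0 of 6 neighbours had separate groups.

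**Figure D5:**
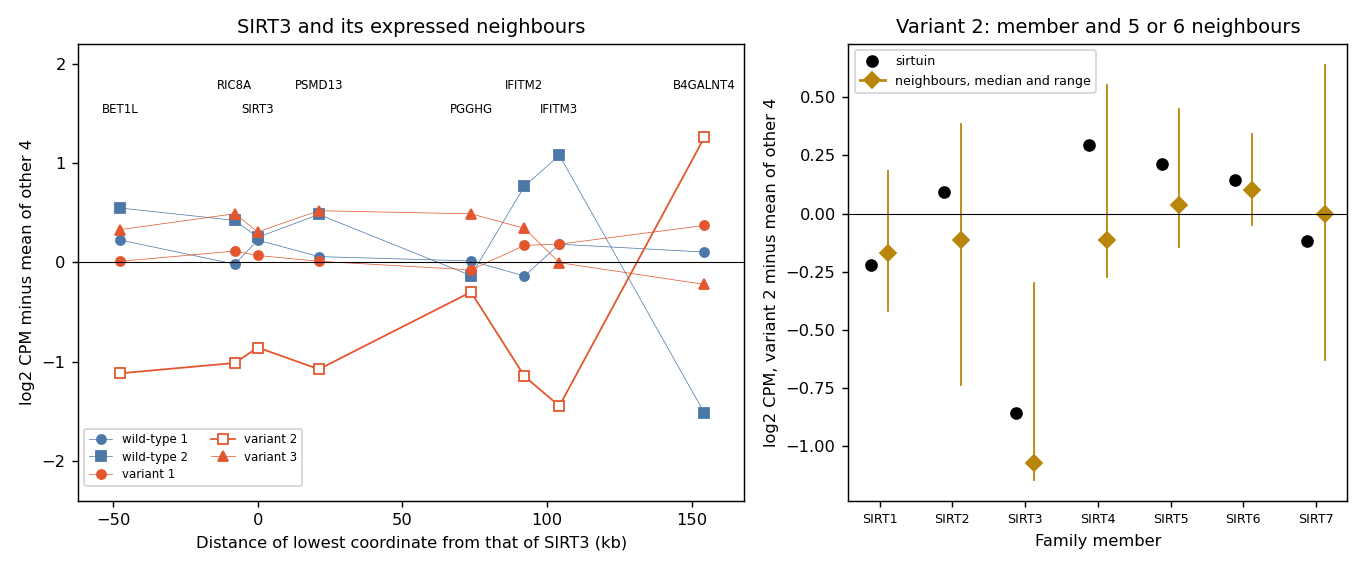
Left, log2 CPM minus the mean of the other 4 libraries for SIRT3 and its nearest tested genes, against the distance in kilobases. Right, the same value in variant 2 for each sirtuin (black) and the median and range of its 5 or 6 neighbours (gold). In variant 2 SIRT3 (−0.86) and its 5 nearest genes (median −1.08) are low, and B4GALNT4, farther off, is high (1.26).

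Genes with the most similar profile over the 5 libraries were ranked by the root-mean-square distance of log2 CPM, each gene centred on its own mean, over 12187 genes with a mean log2 CPM of at least 2 (12188 for SIRT4, itself below that level). For SIRT3 the closest were XRCC6P4 (0.0809), SEC11C (0.0994) and MRPL40 (0.112), on 3 other chromosomes. XRCC6P4 is a pseudogene of XRCC6, with which short reads can be shared. SEC11C, a signal peptidase subunit, stood at 57.2 CPM in variant 2 and between 84.6 and 116 CPM elsewhere. For SIRT2 they were GSTO1 (0.0122), DUBR (0.0386) and TOM1L1 (0.0454). GSTO1 stood at 166 and 177 CPM in wild type and at 115, 159 and 145 CPM in the variant.

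For SIRT4 they were RBP7 (0.0734), HMOX1 (0.104) and NRBP2 (0.139), and HMOX1, the haem oxygenase, stood at 21.7 CPM in variant 1 and between 47.3 and 54.4 CPM elsewhere. For SIRT5 they were ZSCAN9 (0.0106), SPTLC1 (0.0133) and EPHB4 (0.0218). For SIRT1 they included RBM39 and STRIP2, and they were for SIRT6 RPL18, AARS1 and PSMD7, and for SIRT7 EXOSC5, ANAPC7 and EFL1. Flat profiles have many near matches. Within a distance of 0.1 there were 979 genes for SIRT7 and 484 for SIRT6, but 2 for SIRT3 and 1 for SIRT4.

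Genes tied to sirtuin function were counted from 6 lists, beside all tested genes, of which 50.5% were higher in the variant with a median log2 fold change of 0.00. By edgeR 0 members of any list passed an adjusted p of 0.05. Of genes that make NAD, turn it into NADP or carry it into mitochondria, 6 of 9 tested were higher and 3 lower, with a median of 0.09, and none had an unadjusted p under 0.05. Among the 6 higher were NADK and NADK2, which make NADP from NAD, and the carrier SLC25A51, so 3 of the 6 do not make NAD. NADK was the most abundant (152 CPM), and NAMPT, the rate-limiting enzyme of NAD salvage, stood at 84.6 and 52.3 CPM in wild type and at 55.1, 49.3 and 47.4 CPM in the variant. Of the other enzymes that use NAD, 7 of 15 were higher, with a median of −0.05. PARP1 (1384 CPM) had a log2 fold change of −0.05 (SE 0.12). SARM1, the axonal NAD hydrolase, had 0.65 (SE 0.27, edgeR p 0.0386 unadjusted and 0.635 adjusted), and BST1 had 1.42 (SE 0.55) at a mean of 0.528 CPM.

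Of the zinc-dependent deacetylases 7 of 11 were higher, with a median of 0.05, and HDAC2 was the most abundant by CPM (313). Of the regulators of sirtuins, 10 of 16 were higher, with a median of 0.05. HIC1, a repressor of SIRT1 transcription, had 0.66 (SE 0.29, edgeR p 0.0472 unadjusted and 0.649 adjusted). USP22, a ubiquitin protease that stabilises SIRT1, was the most abundant regulator (417 CPM).

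Of the nuclear and cytosolic substrates 16 of 26 were higher, with a median of 0.05. Without CDH1, which is on this list through an alias of FZR1, 16 of 25 were higher. Of the mitochondrial substrates 16 of 23 were lower, with a median of −0.12, and 2 of 23 were under 0.05 unadjusted by edgeR, a share near the 7.62% of all tested genes. ATP5PO, the oligomycin-sensitivity subunit of ATP synthase, had −0.45 (SE 0.16) with 110 and 94.4 CPM in wild type and 69.1, 79.3 and 75.9 CPM in the variant. CPS1, the carbamoyl phosphate synthetase that SIRT5 desuccinylates, had −1.16 (SE 0.38) with 9.44 and 18.6 CPM in wild type and 4.33, 5.40 and 9.15 CPM in the variant. Both had an adjusted p of 0.616 by edgeR. ATP5F1B was the most abundant mitochondrial substrate (1124 CPM), with a log2 fold change of −0.14 (SE 0.13). SOD2 and IDH2, described targets of SIRT3, had 0.08 (SE 0.19) and 0.28 (SE 0.16).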

How the data were processed

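Per the submitters' processing notes, HISAT2, SAMtools, HTSeq and the build hg38 were used, with no version or role. The authors deposited raw read counts per gene with no normalization. The annotation, strand setting and gene filter are not given in the sources used here. No gene in the table has fewer than 3 counts in any library. All 5 columns were matched by library name. Of 16677 identifiers, 16627 were named from a gene name table, and GENCODE release 29 (GRCh38) placed 16565 and gave exons, lengths and GC content.

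Genes were filtered with filterByExpr of edgeR 4.0.16 (R 4.3.3) by group, which kept 16310. Levels are CPM, the count as a share of the library total, with TMM (trimmed mean of M-values), and log2 CPM has a prior count of 2. Groups were compared with edgeR's quasi-likelihood F test, two-sided, over all tested genes with Benjamini-Hochberg adjustment and a threshold of 0.05. The fit was also run on simulated data with planted changes and no GC bias, and the outcome is not reported here. Each library was also set against the mean of the other 4, with a line at 1.5-fold. Members and gene lists were chosen with earlier results of these data known. By rule, the text names the sirtuins, the 3 nearest tested protein-coding genes on each side, the 3 genes with the closest profile, and from each list the most abundant gene and those with an unadjusted p under 0.05. Some genes that the rule names are not reported here. NAMPT, SOD2, IDH2 and the zinc-dependent deacetylases beside HDAC2 were named outside this rule, after their values were seen. CDH1 is on a substrate list only because its symbol is also an alias of FZR1. The labels do not say whether libraries came from separate cultures, so p-values measure only the spread between these libraries. Alternatives were other scalings and filters, DESeq2 1.42.0, limma-voom of limma 3.58.1, a replicate block, offsets fitted in each library on GC and length (splines, 5 degrees of freedom), other lengths, and leaving out each library. A comparison of SIRT3 with its adjacent genes was added after seeing the data.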

Additional observations from a re-analysis of the deposited data

How the results depend on the processing

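No sirtuin had an adjusted p under 0.05 in any of the 13 other fits, and SIRT2, SIRT3 and SIRT5 kept their direction in all 13. SIRT3 reversed in the comparison added after seeing the data, relative to BET1L, RIC8A and PSMD13 (0.0643 on the log2 scale). The other 4 changed sign in some alternatives. With the replicate block SIRT6 became −0.0234 and SIRT7 −0.0425, and SIRT3 moved to −0.505 and SIRT4 to −0.506. The block changed no call. Number 3 occurs only in the variant, so the block fit took the difference from wild-type 1 and 2 and variant 1 and 2 alone. With variant 3 left out and no block, SIRT6 was −0.0211, SIRT7 −0.0461, SIRT3 −0.461 and SIRT4 −0.417. Deviations of same-numbered libraries from their group means had r = 0.120 across genes for number 1 and r = −0.113 for number 2. With 2 wild-type libraries these deviations mirror each other, so the values cannot decide whether the numbers are pairs. The numbers were not taken as pairs because the labels do not say that they pair cultures. With the correction for GC and length SIRT6 became −0.0432 and SIRT7 −0.0736. Leaving out 1 library in turn moved SIRT2 from −0.387 to −0.173, SIRT3 from −0.461 to −0.0370, SIRT5 from 0.238 to 0.391, SIRT1 from −0.142 to 0.138, SIRT4 from −0.417 to 0.255, SIRT6 from −0.0972 to 0.172 and SIRT7 from −0.0865 to 0.133. Where a wild-type library was left out, the lone one was assumed to vary like the variant. Over all genes, DESeq2 called 32 at an adjusted p under 0.05, and leaving out 1 library gave 0 to 4 (1 without wild-type 1, 4 without variant 3). At an unadjusted p under 0.05 leaving out 1 library gave 549 to 1618 genes, against 1243.

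With the longest transcript, levels in CPM per kilobase were 42.8 for SIRT2, 9.95 for SIRT3, 5.68 for SIRT5, 22.5 for SIRT6 and 24.2 for SIRT7. With the median coding transcript they were 15.1 for SIRT1, 173 for SIRT2, 21.2 for SIRT3, 2.41 for SIRT4, 6.45 for SIRT5, 25.7 for SIRT6 and 62.8 for SIRT7, which follows from the shorter lengths. In variant 2, SIRT2 was 0.290 against the other variant libraries, −0.103 against wild type and −0.0256 after correction for GC and length, and SIRT5 was 0.0658 against the other variant libraries and 0.357 against wild type. For these shifts, and for the sign changes outside the replicate block, the cause was not tested. Depth limits SIRT4 most, at 16 to 51 counts.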
